A study of Mus musculus with 20 samples.

Results

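Genes of cisplatin detoxification and oxidative defence were followed in mouse bladders, bladder tumors and metastases, 10 of the 30142 genes measured. They were Gstm1, Gstm2, Gsta4, Gstp1 and Gstt1 (cytosolic glutathione transferases), Mt1 and Mt2 (metallothioneins), and Nqo1, Hmox1 and Gclc (enzymes of oxidative defence). The members were chosen by symbol and by what their products do, with earlier results of these data known, and each had 1 measured value per array. All 20 samples came from FVB/N mice whose labelled genotype includes floxed Rb alleles (Rbf/f) and p107-/-, the loss of a relative of Rb, and controls carried these alleles too. Control bladder (n = 5) came from mice with no inoculation named in the labels. Bladder tumor (n = 7) came from bladders inoculated with an adenovirus coding for Cre recombinase, the enzyme that deletes floxed genes. Treated bladder (n = 3) came from inoculated mice given CM272, which blocks both G9a (a histone methyltransferase) and enzymes that methylate DNA, at 5 mg/kg/day for 30 days with CDDP (cisplatin) at 6 mg/kg once per week. Metastasis (n = 4) and treated metastasis (n = 1) were metastatic tumors from mice without and with that treatment. The sources used here do not give age, sex, the promoter that drives Cre or the organ that held each metastasis. They also do not say whether each sample came from another animal, so the spread between samples may be partly technical.

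Values are log2 signals, so that a difference of 1 is 2-fold, and array medians lay between 5.07 and 5.42. In 8 arrays, called near-mean arrays here, the deviations of all genes from the mean over the 20 arrays correlated with those of no other array above 0.14. They were control bladder 4, 5 and 6, bladder tumor 3, 4 and 5, and metastasis 3 and 4. In the other 12 arrays the best such correlation was 0.33 to 0.61. For Gstm1 the 8 near-mean arrays spanned 8.41 to 9.40 and the other 12 spanned 5.54 to 13.35. Xist, which is transcribed from the inactive X chromosome of females, read 10.8 in control bladder 1 and 10.9 in control bladder 2, against 4.47 to 6.44 in the other 18 arrays. The labelled tissue was checked with luminal urothelium markers (10 of 10 measured): their mean was 6.84 to 8.49 in control bladder, 5.42 to 10.1 in bladder tumor, 6.96 to 7.98 in treated bladder and 5.40 to 6.95 in metastasis. Bladder tumor 7 stood apart from the other tumors, with Acta2 (smooth muscle actin) at 12.2 and Upk1a (a uroplakin of superficial urothelium) at 13.9. In these bulk samples, fewer cells of a type and less RNA per cell cannot be told apart.

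Glutathione transferases join the tripeptide glutathione to reactive molecules, which makes them easier to export, and the alpha class member Gsta4 acts mainly on 4-hydroxynonenal, a product of lipid peroxidation. Metallothioneins are small cysteine-rich proteins that bind zinc and copper and can also bind platinum. Glutathione itself binds cisplatin, and Gclc is the catalytic subunit of the enzyme that limits its synthesis. The transcription factor Nrf2 acts on antioxidant response elements of many such genes, while the zinc sensor Mtf1 acts on metal response elements of metallothionein genes.

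Promoter sequences from RefSeq (build GRCm38.p6) were at hand for 7 of the 10 members. The metallothionein pair is shown because Mt1 and Mt2 varied together across arrays, as described further on. Each line gives the 250 bases before the annotated start, 5′ to 3′ on the gene's strand, with the metal response element core in capitals, which was TGCACNC or TGCGCNC on either strand. Mt2 lies at chr8:94172368-94172617 (plus strand) and Mt1 at chr8:94178839-94179088 (plus strand), these being the coordinates of the printed bases.
Mt2: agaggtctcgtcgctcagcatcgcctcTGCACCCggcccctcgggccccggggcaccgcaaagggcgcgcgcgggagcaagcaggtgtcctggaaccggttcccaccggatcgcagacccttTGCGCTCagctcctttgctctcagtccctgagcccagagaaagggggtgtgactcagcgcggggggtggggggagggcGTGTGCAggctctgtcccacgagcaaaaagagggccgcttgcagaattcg
Mt1: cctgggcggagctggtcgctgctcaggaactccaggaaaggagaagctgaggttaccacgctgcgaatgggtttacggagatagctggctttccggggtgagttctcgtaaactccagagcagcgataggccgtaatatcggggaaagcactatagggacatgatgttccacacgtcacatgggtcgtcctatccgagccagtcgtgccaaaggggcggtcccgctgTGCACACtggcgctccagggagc
In windows that run from 250 bases before to 50 bases after the start, Mt2 held 4 cores and Mt1 held 3. The Mt2 cores began at -223, -128, -50 and 5 relative to the start, and the Mt1 cores at -23, 3 and 21, so that only those before the start appear in capitals. Of 32851 RefSeq windows of the same length, 25.7% held at least 1 such core, 1.97% at least 3 and 0.52% at least 4. Gstm1 (in each of its windows) and Gstt1 held 1 each, and Gstm2, Gstp1 and Nqo1 held none.

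The antioxidant response element core was searched as TGANNNNGC on either strand, and 41.3% of windows held at least 1. Gstp1, the pi class transferase, held 3, which 1.88% of windows matched or exceeded. It is shown as the member with the most such cores, again with the 250 bases before the start (chr19:4037913-4038162, minus strand) and the cores among them in capitals.
Gstp1: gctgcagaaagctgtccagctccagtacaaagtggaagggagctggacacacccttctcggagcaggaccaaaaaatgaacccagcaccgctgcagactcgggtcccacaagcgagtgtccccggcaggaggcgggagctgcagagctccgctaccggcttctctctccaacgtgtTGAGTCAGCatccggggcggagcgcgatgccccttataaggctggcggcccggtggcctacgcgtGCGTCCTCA
One of the Gstp1 cores began at -74 and read TGAGTCAGC, and another began at -9 on the opposite strand. The remaining core, TGAATCCGC, began at 30, after the start, so it is not printed. Mt2 held 1 (TGACTCAGC, from -79) and Gstt1 held 1 (TGAGAGAGC, from -89). No match lay in the windows of Gstm1, Gstm2, Nqo1 or Mt1. A match is a run of letters, and nothing here measured binding.

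Gstm1, the first of the mu class transferases, varied more across the 20 arrays than any other member, with an SD of 2.12, the 8th largest of 30142 genes. In control bladder it read 11.7, 11.9, 9.01, 9.40 and 8.72 in samples 1, 2, 4, 5 and 6. The tumors ran from 5.54 (bladder tumor 6) through a median of 8.51 to 13.4 (bladder tumor 7). Both the lowest and the highest level of the whole series were therefore in bladder tumors, and the tumors overlapped every other group. Treated bladders 1, 2 and 3 read 10.5, 9.21 and 11.2. Metastases 1 to 4 read 12.1, 6.98, 8.41 and 9.06, and the treated metastasis read 5.95. By group mean the order was treated bladder (10.3 ± 1.002, SD, n = 3), control bladder (10.2 ± 1.55, n = 5), metastasis (9.13 ± 2.15, n = 4) and bladder tumor (8.56 ± 2.53, n = 7). Neighbours in this order differed by less than the SD of either one.

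Gstm2, a close relative of Gstm1 in the same gene cluster, was far less variable but for 1 array. Metastasis 1 read 12.0, while metastases 2, 3 and 4 read 7.35, 7.19 and 7.38. Control bladders read 7.70, 7.80, 6.999, 7.14 and 7.23, and the tumors ran from 5.05 (bladder tumor 6) through 7.06 to 7.70. Treated bladders read 7.31, 6.88 and 7.29, and the treated metastasis 8.01. Metastasis 1 was thus alone above all other arrays, and the metastasis mean of 8.48 ± 2.35 (SD, n = 4) rested on it. Gstm1 was also highest of its group there. Genes of the mu class share long stretches of sequence, and the sources used here do not say how the probes separate them.

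Gsta4 had an SD of 1.38 over the arrays, the 81st largest. Control bladders read 9.77, 10.1, 7.81, 8.15 and 8.61. Tumors ran from 5.96 (bladder tumor 6) through 8.24 to 11.2 (bladder tumor 7), the same samples that bounded Gstm1. Treated bladders read 8.54, 10.3 and 8.84. Metastases read 7.17, 6.69, 8.41 and 7.78, and the treated metastasis read 5.82. The metastases overlapped control bladder and tumor, and the treated metastasis was the lowest of all arrays. The group means were 9.21 ± 0.92 (SD, n = 3) in treated bladder, 8.88 ± 0.995 (n = 5) in control bladder, 8.21 ± 1.64 (n = 7) in tumor and 7.51 ± 0.75 (n = 4) in metastasis, with neighbours closer than their SDs.

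Gstp1 and Gstt1 moved within narrower limits. Gstp1 read 7.22 ± 0.21 (SD, n = 4) in metastasis, 7.04 ± 0.48 (n = 5) in control bladder, 7.03 ± 0.60 (n = 7) in tumor and 7.01 ± 0.24 (n = 3) in treated bladder, and its extremes were bladder tumor 1 at 6.24 and bladder tumor 7 at 7.94. Gstt1, the theta class member, averaged 5.90 ± 0.33 in control bladder, 5.65 ± 0.41 in tumor, 5.54 ± 0.09 in treated bladder and 5.50 ± 0.24 in metastasis. The treated metastasis read 7.06 for Gstp1 and 6.19 for Gstt1. Across arrays the SD of Gstp1 was 0.43 and that of Gstt1 0.35, against a median of 0.26 over all genes.

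The metallothioneins showed a different profile from the transferases. Mt1 read 6.95, 6.77, 7.52, 7.54 and 7.11 in the control bladders. Among tumors it ran from 6.33 (bladder tumor 1) through 7.46 to 8.61 (bladder tumor 7), with bladder tumor 6 at 8.28. Bladder tumor 6 was thus among the highest for Mt1 and the lowest of the tumors for Gstm1, Gstm2, Gsta4, Gstt1 and Nqo1. Treated bladders read 7.11, 7.88 and 6.41 for Mt1. Metastases 1 and 2 read 8.50 and 8.62, metastases 3 and 4 read 7.37 and 6.81, and the treated metastasis read 8.38. By mean, Mt1 was 7.83 ± 0.88 (SD, n = 4) in metastasis, 7.51 ± 0.82 (n = 7) in tumor, 7.18 ± 0.34 (n = 5) in control bladder and 7.14 ± 0.74 (n = 3) in treated bladder. All neighbouring groups overlapped.

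Mt2 followed the same order at the top. Control bladders 1, 2, 5 and 6 read between 4.39 and 4.48, with control bladder 4, a near-mean array, at 5.43. Tumors ran from 4.35 (bladder tumor 1) through 5.09 to 5.74 (bladder tumor 6). Treated bladders read 4.91, 5.26 and 4.30, metastases 5.47, 5.82, 5.10 and 4.75, and the treated metastasis 5.33. Mt2 averaged 5.28 ± 0.46 (SD, n = 4) in metastasis, 5.10 ± 0.47 (n = 7) in tumor, 4.82 ± 0.49 (n = 3) in treated bladder and 4.64 ± 0.44 (n = 5) in control bladder, each closer to its neighbour than its SD. Its mean over the 20 arrays was 4.99, below the median of 5.33 over the means of all genes, so its signal was low on these arrays.

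Among the enzymes of oxidative defence, Nqo1, a quinone reductase, was bounded by bladder tumor 6 at 4.68 and bladder tumor 7 at 7.07, with a tumor median of 5.44. Control bladders read 6.17, 6.44, 5.36, 5.55 and 5.67, treated bladders 5.49, 5.31 and 6.12, metastases 4.70, 4.92, 5.28 and 5.50, and the treated metastasis 5.20. Control bladders 1 and 2 and bladder tumor 7 were the highest arrays, and metastasis had the lowest mean at 5.10 ± 0.36 (SD, n = 4).

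Hmox1, which breaks down heme, had its highest value in metastasis 1 at 7.09. The other metastases read 5.91, 5.42 and 5.80 and the treated metastasis read 6.04. Tumors ran from 5.16 through 5.34 to 5.69, control bladders from 4.99 to 5.64 and treated bladders from 5.18 to 5.56. Of the 4 metastases, 3 were above every tumor, and metastasis 3 overlapped the tumors. Gclc varied least of the members, with an SD of 0.28 over the arrays. It ranged from 6.47 (bladder tumor 2) to 7.49 (bladder tumor 7), and its group means lay between 6.71 ± 0.14 (n = 4) in metastasis and 6.97 ± 0.30 (n = 3) in treated bladder.

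**Figure D1:**
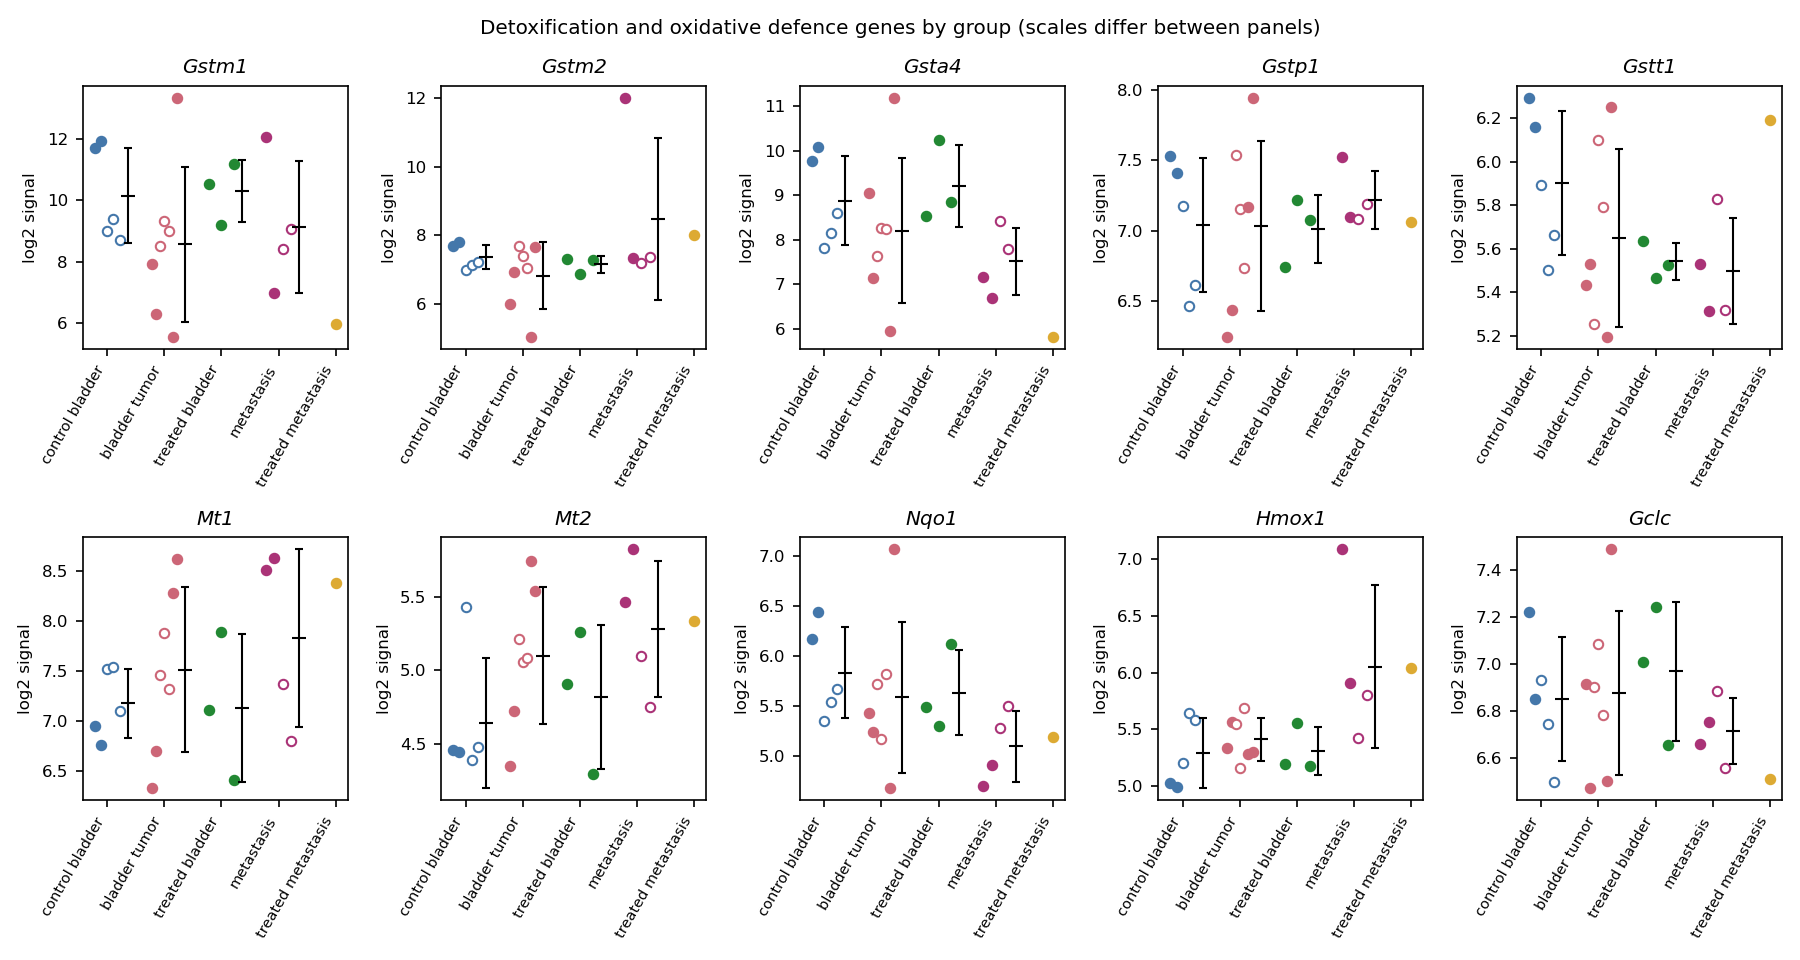
Log2 signal of each member in each array (points) by group, with the group mean and SD (bars, none for the single treated metastasis); open points are the 8 near-mean arrays, and axes differ between panels. Bladder tumor 7 is the highest point for Gstm1 (13.4) and Gsta4 (11.2), and metastasis 1 for Gstm2 (12.0) and Hmox1 (7.09).

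The first comparison set tumor against control bladder. No member differed beyond the spread between samples: in the limma fit 0 of 10 were called at adjusted p under 0.05, and 0 of 10 had an unadjusted p under 0.05. Over all genes 0% were called, and 4.28% (1291 of 30142) had an unadjusted p under 0.05. Fits with array weights or with a trended and robust prior also called 0 genes. Array weights put 2 of 10 members at an unadjusted p under 0.05, beside 3141 of all 30142 genes. The replicate block put 3 of 10 members there, beside 1831 of all genes. Gstm1 was lower in tumor by 1.60 on average (difference -1.60, SE 1.11, 95% interval -3.92 to 0.73, unadjusted p = 0.167, adjusted p = 0.999), and 4 of 7 tumors were below every control. Without bladder tumor 7 the difference was -2.39 (unadjusted p = 0.0164, adjusted p = 0.651), and without bladder tumor 6 it was -1.09. Mt2 had the smallest p of the members, with a difference of 0.46 (SE 0.25, 95% interval -0.07 to 0.99, unadjusted p = 0.086). It was 0.66 without control bladder 4 (unadjusted p = 0.0158, adjusted p = 0.995). Of the 10 members, 4 had higher means in tumor and 6 lower, and the median difference was -0.13 against 0.01 over all genes.

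Without the 8 near-mean arrays, only control bladders 1 and 2 remained as controls, which are also the 2 arrays with high Xist. The difference in Gstm1 was then -3.56, that in Gsta4 -1.59 and that in Gstt1 -0.62 (unadjusted p = 0.0327, adjusted p = 0.987). Tumor against control and high against low Xist cannot be told apart in those arrays.

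The second comparison asked what CM272 with cisplatin did to these genes in the inoculated bladder. Here too 0 of 10 members were called and 0 of 10 had an unadjusted p under 0.05. Over all genes 0% were called, and 0.488% (147 genes) had an unadjusted p under 0.05, with 0 called under array weights or a trended and robust prior. Gstm1 was higher in treated bladder by 1.74 (SE 1.31, 95% interval -0.999 to 4.49, adjusted p = 1.0), and the treated values lay within the range of the tumors. For Gsta4 the difference was 1.001 (SE 0.79, 95% interval -0.66 to 2.66). Leaving out bladder tumor 7 raised these to 2.54 (unadjusted p = 0.0269, adjusted p = 1.0) and 1.497 (unadjusted p = 0.0282, adjusted p = 1.0). Without bladder tumor 6 they were 1.24 and 0.63, and without treated bladder 2 the difference in Gsta4 was 0.48. No treated bladder was a near-mean array, while 3 of the 7 tumors were. With the near-mean arrays left out, the difference was 2.035 for Gstm1 (unadjusted p = 0.275) and 0.877 for Gsta4 (unadjusted p = 0.412). The metallothioneins had lower means in treated bladder, by -0.38 for Mt1 (95% interval -1.35 to 0.60) and -0.28 for Mt2 (95% interval -0.91 to 0.35). Without treated bladder 3 these were -0.014 and -0.018, and without treated bladder 2 they were -0.75 and -0.50. Differences in Gstp1, Gstt1, Nqo1, Hmox1 and Gclc lay between -0.11 and 0.09. Smooth muscle markers (10 of 10 measured) averaged 6.46 to 8.44 in treated bladder and 5.40 to 9.54 in tumor, a wider span in the tumors. The part of smooth muscle in these differences was not tested.

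Treated bladder was also set against control bladder, which shares its treated samples with the comparison above. No member was called (0 of 10, and 0 of 10 at an unadjusted p under 0.05). The shares over all genes were 0% and 0.763% (230 genes), with 0 called under array weights or a trended and robust prior. Gstm1 differed by 0.15 (95% interval -2.75 to 3.05) and Gsta4 by 0.33 (95% interval -1.43 to 2.09). The smallest p was that of Gstt1, with a difference of -0.36 (SE 0.23, unadjusted p = 0.137). Without the near-mean arrays Gstm1 was -1.52 and Gsta4 -0.71, both with the sign turned, against the 2 remaining controls. Gstt1 was then -0.68 (unadjusted p = 0.0276, adjusted p = 1.0). Those controls were the arrays with high Xist, so treated against control and low against high Xist cannot be told apart there.

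Metastasis against bladder tumor gave the smallest p-values among the members. Hmox1 was higher in metastasis by 0.64 (SE 0.23, 95% interval 0.16 to 1.13, unadjusted p = 0.0117, adjusted p = 0.825) and Gstm2 by 1.65 (SE 0.71, 95% interval 0.16 to 3.14, unadjusted p = 0.0321, adjusted p = 0.825). Neither passed the adjusted threshold. With 2 of 10 members at an unadjusted p under 0.05, the share over all genes was 6.00% (1810 genes), and 0% were called. Array weights called 2 genes and a trended and robust prior 0, with no member among them. Both differences were smaller without metastasis 1. Then Hmox1 was 0.30 and Gstm2 0.48, and Gstm1 went from 0.57 to -0.41. Without the near-mean arrays, which left metastases 1 and 2, Hmox1 was 1.13 and Gstm2 3.26. Nqo1 (-0.49, unadjusted p = 0.16) and Gsta4 (-0.70, unadjusted p = 0.346) had lower means in metastasis. Without bladder tumor 7 these were -0.25 and -0.20, and without bladder tumor 6 -0.64 and -1.07.

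Marker levels differed between the metastases. The macrophage markers (10 of 10 measured) averaged 8.05 in metastasis 1, 7.41 in the treated metastasis and 7.34 in metastasis 2, but 6.36 in metastasis 3 and 6.33 in metastasis 4. They averaged 5.68 to 6.85 in tumor, 5.6 to 6.53 in control bladder and 5.90 to 6.22 in treated bladder. Metastasis 4, a near-mean array, had macrophage markers inside the tumor range and Hmox1 at 5.80, against 5.69 in bladder tumor 5, the highest tumor. Hepatocyte markers (8 of 8 measured) averaged 5.37 to 7.14 in metastasis and 4.72 to 5.36 in tumor. The highest was metastasis 2, where Alb (albumin) read 9.53 and Fgb (fibrinogen) 9.75. Not every marker of the list was high there. Serpina1c read 4.71, against 5.22 in bladder tumor 1, and Ttr read 5.36, against 6.13 in bladder tumor 7. In metastasis 1 Ahsg (fetuin-A) read 10.6 and Cyp2e1 8.81, while Alb read 5.06 and Fgb 4.65, both at or below bladder tumors 1, 2, 6 and 7. Luminal urothelium markers averaged 5.40 in metastasis 1. The part of these cells in the member values was not tested.

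**Figure D2:**
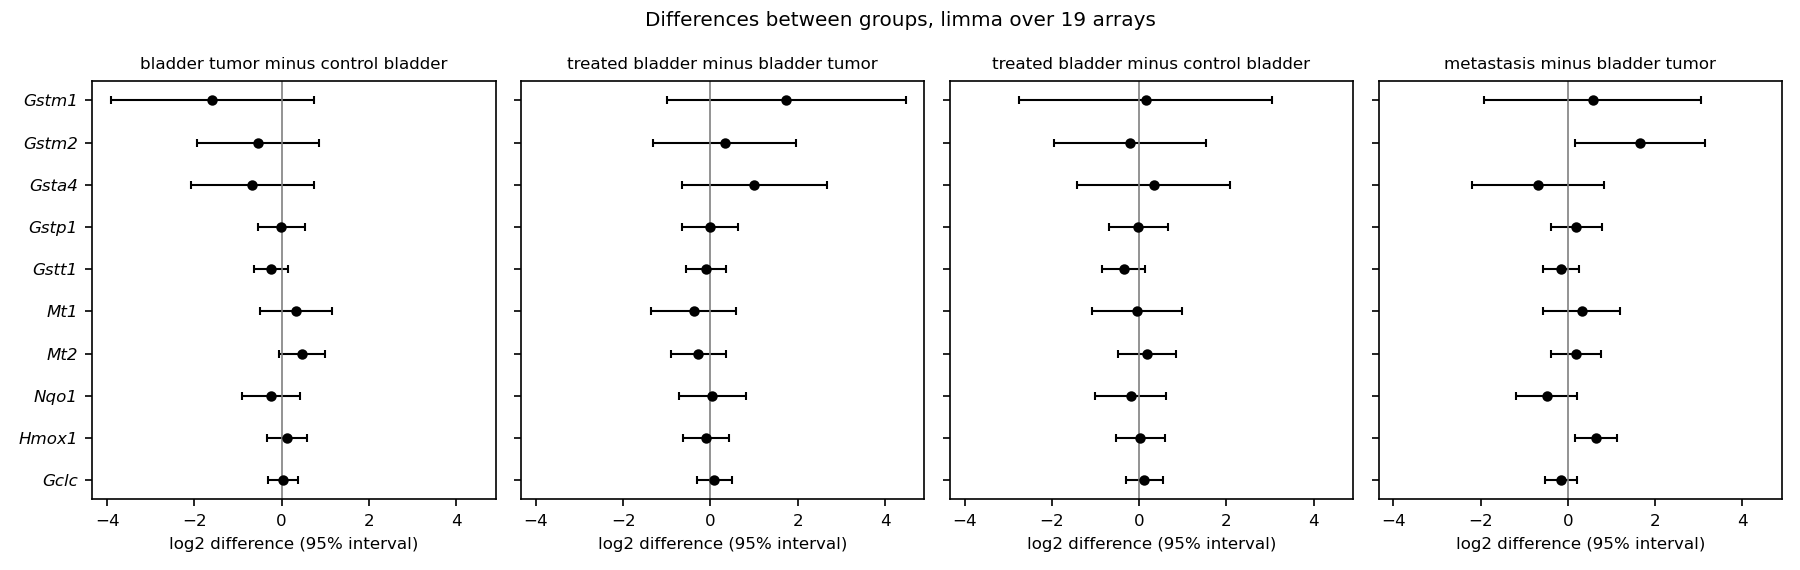
Log2 difference (points) with its 95% interval (bars) for each member in 4 comparisons, from the limma fit over 19 arrays; the vertical line is 0. Intervals are widest for Gstm1, and those of Gstm2 and Hmox1 in metastasis minus bladder tumor lie above 0 (0.16 to 3.14 and 0.16 to 1.13).

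The treated metastasis is a single sample with no replicate check. It read below all 4 untreated metastases for Gstm1 (5.95 against a lowest value of 6.98), Gsta4 (5.82 against 6.69), Gstp1 (7.06 against 7.08) and Gclc (6.51 against 6.56), and above them for Gstt1 (6.19 against a highest value of 5.83). The other 5 members lay inside the range of the untreated metastases. Thus 5 of 10 members were outside that range, as were 33.5% of all genes.

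Members varied together in 2 sets, which was examined over the 20 arrays with two-sided permutation tests (100000 resamples), Benjamini-Hochberg adjusted over 45 pairs. All points share the arrays and their normalization. The arrays span 5 groups and include near-mean arrays, so r is also given over the other 12. Mt1 and Mt2 had Pearson's r of 0.87 (p = 1e-05, the smallest the resampling can give, adjusted p = 0.00045) and Spearman's rho of 0.86 (p = 1e-05). Over the 12 arrays r was 0.96 and over the 8 near-mean arrays 0.35. Leaving out metastasis 2 and bladder tumor 7, the arrays farthest from the median, r was 0.82 (permutation p = 4e-05).

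The other set was Gstm1, Gsta4, Nqo1 and Gclc, linked through Gstm1 and Gsta4. Nqo1 with Gclc did not pass, at r = 0.52 (rho = 0.30, permutation p = 0.0195 and 0.194, adjusted p = 0.0799 for r). Without bladder tumor 7 and control bladder 2 the r of that pair was 0.28. Gsta4 correlated with Nqo1 at r = 0.78 (rho = 0.68, permutation p = 8e-05 and 0.00145, adjusted p = 0.0015 for r) and with Gclc at r = 0.76 (rho = 0.63, permutation p = 0.0001 and 0.00345, adjusted p = 0.0015 for r). Without the 2 farthest arrays these were 0.72 and 0.63, and over the 12 arrays 0.82 and 0.87. Within the 8 near-mean arrays they were -0.08 and -0.20, so the relation was not seen there. Gstm1 with Gsta4 had r = 0.75 (rho = 0.63, permutation p = 0.00014 and 0.00347, adjusted p = 0.00157 for r) and 0.60 without bladder tumors 6 and 7 (adjusted p = 0.0503). The relations of Gstm1 with Nqo1 (r = 0.67, rho = 0.56, permutation p = 0.00098 and 0.012) and with Gclc (r = 0.59, rho = 0.48, permutation p = 0.00615 and 0.0342) rested on bladder tumors 6 and 7. Without those arrays r was 0.46 (permutation p = 0.0514) and 0.38 (permutation p = 0.121). In all, 6 of 45 pairs had an adjusted p under 0.05 over 20 arrays, 3 of them also without the farthest 2 arrays, and 3 pairs did over the 12. Gstm2 and Hmox1 had r = 0.71 and rho = 0.04 (permutation p = 0.0165 and 0.864). Without metastasis 1 and bladder tumor 6 their r was 0.02.

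**Figure D3:**
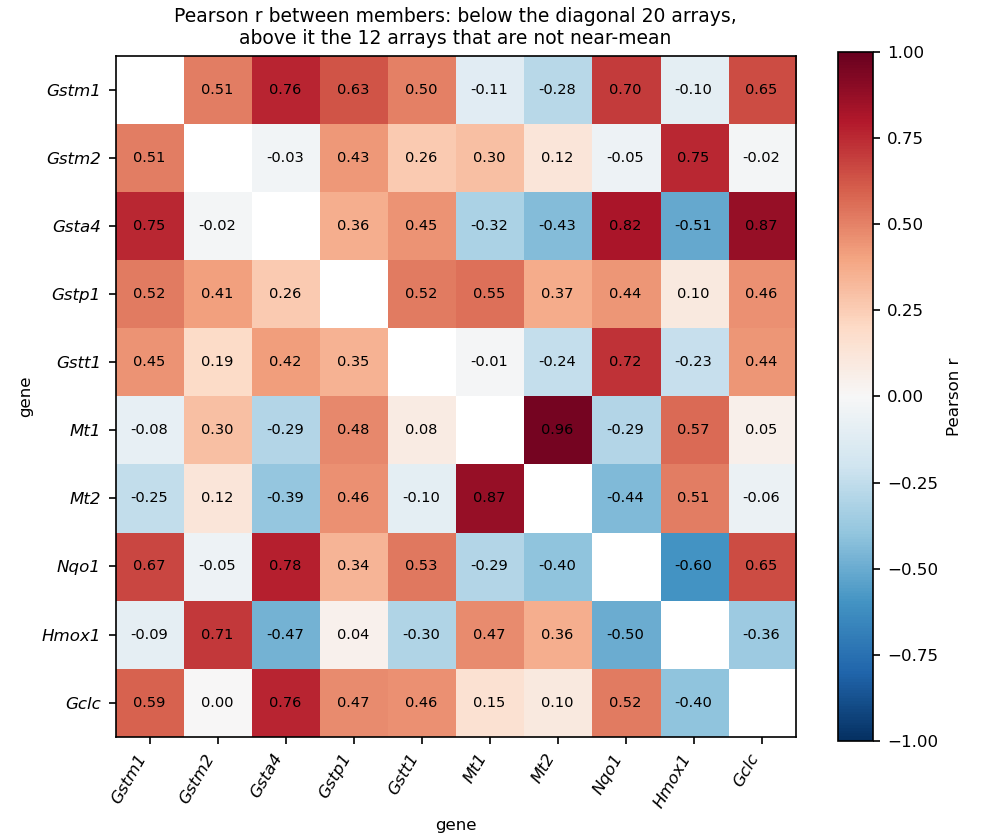
Pearson's r between members over 20 arrays (below the diagonal) and over the 12 arrays that are not near-mean (above it), with colour from -1 to 1. Mt1 with Mt2 (0.87 and 0.96) and Gsta4 with Nqo1 (0.78 and 0.82) and with Gclc (0.76 and 0.87) stand out.

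The members were also set against the mean of each of 11 marker lists, 110 relations in all, of which 21 had an adjusted p under 0.05 over 20 arrays. Of these, 15 also did without the 2 farthest arrays. Gsta4 followed luminal urothelium at r = 0.92 (rho = 0.85, permutation, adjusted p = 0.000275), with 0.93 over the 12 arrays and 0.89 without bladder tumor 7 and control bladder 2. It also followed smooth muscle (r = 0.90, rho = 0.79), basal epithelium (r = 0.89, rho = 0.89) and endothelium (r = 0.67, rho = 0.64), and ran against macrophage markers (r = -0.67, rho = -0.74). Nqo1 followed luminal urothelium at r = 0.90 (rho = 0.78), and 0.78 without bladder tumor 7 and control bladder 2. Its r was 0.80 with smooth muscle (rho = 0.66) and 0.67 with basal epithelium (rho = 0.73). Gclc followed smooth muscle at r = 0.78 (rho = 0.66) and luminal urothelium at 0.75 (rho = 0.61). With basal epithelium it had r = 0.67 (rho = 0.55) and with endothelium 0.58 (rho = 0.49). Without the 2 arrays farthest from the median of each list, the latter relations were 0.48 and 0.45 (permutation, adjusted p = 0.143 and 0.167). Gstm1 followed smooth muscle and luminal urothelium, each at r = 0.71 (rho = 0.68 and 0.62), but at 0.53 and 0.54 without bladder tumor 7 and control bladder 2 (permutation, adjusted p = 0.0937 and 0.0871). Both lists had their highest mean in bladder tumor 7 (10.1 for luminal urothelium and 9.54 for smooth muscle) and their lowest mean among tumors in bladder tumor 6 (5.42 and 5.40). Over the 8 near-mean arrays, r with luminal urothelium was -0.02 for Gsta4, 0.04 for Nqo1, -0.10 for Gclc and 0.27 for Gstm1. With smooth muscle it was 0.23 for Gsta4, -0.52 for Nqo1, -0.17 for Gclc and 0.55 for Gstm1. With basal epithelium it was 0.38 for Gsta4, 0.46 for Nqo1 and -0.01 for Gclc.

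Macrophage markers had a positive relation at adjusted p under 0.05 with Hmox1, Mt1 and Mt2. Hmox1 followed them at r = 0.84 (rho = 0.68, permutation, adjusted p = 0.00044), 0.87 over the 12 arrays and 0.62 without metastasis 1 and the treated metastasis. Mt1 followed them at r = 0.75 (rho = 0.68, permutation, adjusted p = 0.000786) and Mt2 at 0.66 (rho = 0.66, permutation, adjusted p = 0.00855). Without the same arrays these were 0.70 and 0.69. Mt2 also followed neutrophil markers (r = 0.62, rho = 0.62), and 0.51 remained without bladder tumor 6 and control bladder 1 (permutation, adjusted p = 0.108). Within the 8 near-mean arrays r with macrophage markers was -0.13 for Mt1, -0.60 for Mt2 and 0.28 for Hmox1. The remaining relations that passed were Gstm2 with adipocyte markers (r = 0.65), Hmox1 with basal epithelium (r = -0.60) and Mt1 with lung epithelium (r = -0.58). Without the farthest arrays these were 0.61, -0.70 and -0.40. Hmox1 with hepatocyte markers did not pass (r = 0.54, permutation, adjusted p = 0.137). Its rho there was 0.65, and r was 0.72 without metastasis 2 and bladder tumor 6.

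**Figure D4:**
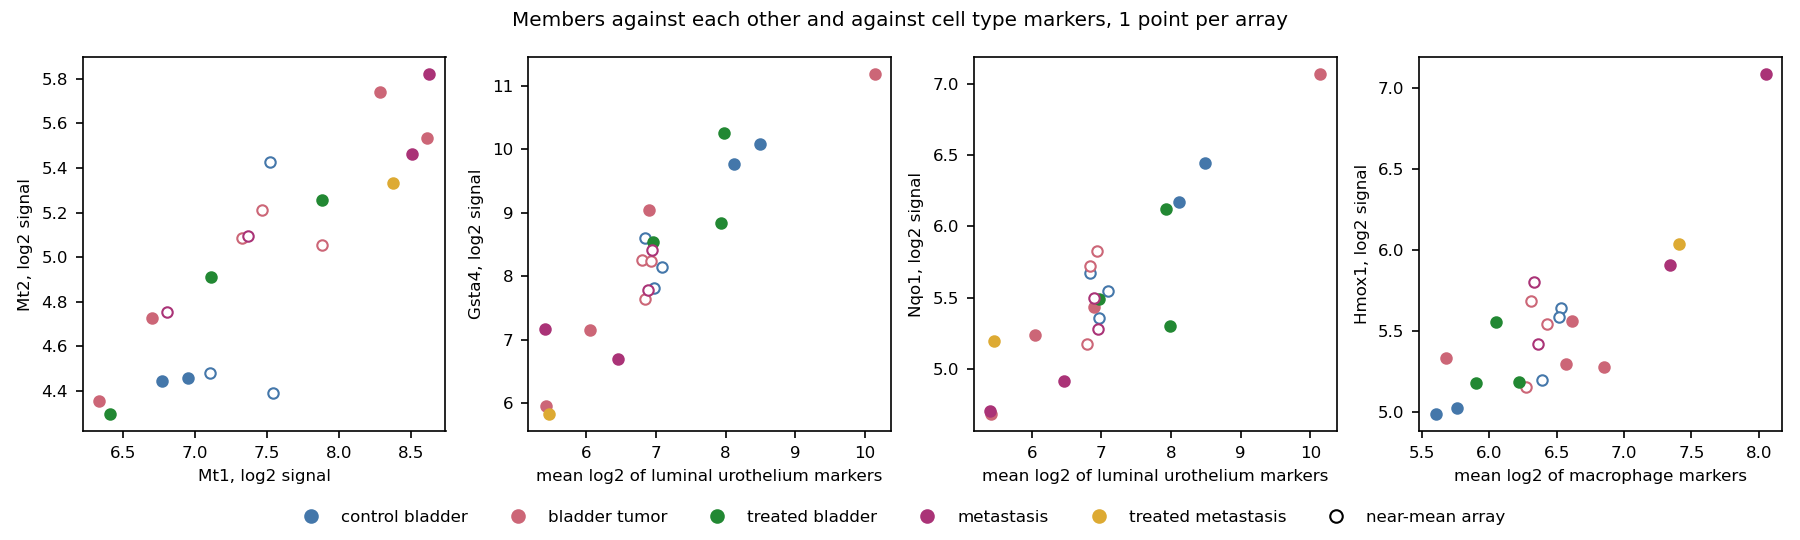
Each point is 1 array, coloured by group, with near-mean arrays open; axes are log2 signals or the mean log2 signal of a marker list. Mt2 rises with Mt1 (r = 0.87), Gsta4 and Nqo1 with luminal urothelium markers (0.92 and 0.90) and Hmox1 with macrophage markers (0.84), while the open points cluster near the centre.

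The genes most like 4 of the members over the 20 arrays were found by Pearson's r among all genes and are a description. For Gstm1 they were Ralgapa2 (r = 0.91), its relative Gstm3 (0.91) and Ppfibp2 (0.89). Over the 12 arrays Gstm3 reached 0.96. For Nqo1 they were Upk2 (0.93), a uroplakin, Cyp4f15 (0.92) and Scube2 (0.92). For Hmox1 they were Me2 (0.92), a mitochondrial malic enzyme, Lrrc8b (0.90), a subunit of volume-regulated anion channels, and Arg1 (0.90). Spearman's rho was lower, at 0.83 for Me2, 0.68 for Lrrc8b and 0.67 for Arg1. Arg1, the arginase of liver and of some macrophages, ranged from 5.09 to 8.66. For Mt1 they were Pank3 (0.92), Agfg2 (0.90) and Cdc42bpb (0.90), and Mt2 at 0.87 was not among the nearest 3.

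Beyond the members, 82 of 92 listed genes of the same pathways were measured, and 0 of 82 were called in any of the 4 comparisons. At an unadjusted p under 0.05 there were 6 (7.32%) in tumor against control, 0 in both comparisons of treated bladder and 7 (8.54%) in metastasis against tumor. The shares over all genes were 4.28%, 0.488% and 0.763%, and 6.00%. In tumor, Ltc4s (leukotriene C4 synthase, a microsomal relative of the transferases) was higher by 0.36 (unadjusted p = 0.00175, adjusted p = 0.999), Gpx2 (an epithelial glutathione peroxidase) was higher by 0.35 (unadjusted p = 0.00609), and Gstm4 was -0.60 (unadjusted p = 0.0306). Slc40a1 (ferroportin, the iron exporter) was -0.27 (unadjusted p = 0.0127), Nqo2 -0.32 and Cbr3 0.20. None of the 6 passed the adjusted threshold. Ltc4s read 3.81 ± 0.06 in control bladder (SD, n = 5), a dim signal.

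In metastasis against tumor, Aldh1a1 (a retinal dehydrogenase) had a difference of 1.42, the ferritin light chain gene Ftl1 0.82, the copper exporter Atp7a 0.59, Mgst1 0.58 (unadjusted p = 0.0336), Taldo1 of the pentose phosphate pathway 0.34 (unadjusted p = 0.0159) and Blvra, which acts after Hmox1 in heme breakdown, 0.31. Gpx2 had a difference of -0.41 (unadjusted p = 0.00352), opposite in sign to that in tumor against control, comparisons that share the tumors. All 7 had an adjusted p of 0.825. Aldh1a1 read 5.73 ± 0.53 in tumor (n = 7) and 7.15 ± 1.48 in metastasis (n = 4), with 9.24 in metastasis 2.

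By role, the 14 measured other cytosolic transferases had 6 higher and 8 lower means in tumor and 10 higher and 4 lower in treated bladder against tumor, with medians of -0.04 and 0.13. The medians over all genes were 0.01 and 0.00. Microsomal transferases (5 of 5 measured) had 1 higher and 4 lower in tumor. The 8 regulators around Nrf2 had 2 higher and 6 lower in tumor, and Keap1, which holds Nrf2 in check, differed by 0.12 (unadjusted p = 0.107) and by -0.12 in treated bladder against tumor (unadjusted p = 0.177). Nfe2l1, a relative of Nrf2, differed by -0.03 in that comparison. Of 10 measured genes of glutathione synthesis and supply, 6 were higher in tumor, and Idh1 differed by 0.06. Among 11 peroxidases, thioredoxins and dismutases, 9 had lower means in treated bladder than in tumor, and Txn1 (thioredoxin) differed by 0.64 in metastasis against tumor (unadjusted p = 0.0698).

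Of the other metallothioneins, Mt3 differed by 0.14 in tumor and 0.06 in treated bladder against tumor, and Mt4 by -0.02 and -0.17. For heme and iron handling (8 of 8 measured) 4 were higher and 4 lower in tumor, with Fth1 (ferritin heavy chain) at 0.01. Of 9 measured genes of quinone and carbonyl reduction, 6 had lower means in tumor, Ephx1 (microsomal epoxide hydrolase) differing by -0.49 (unadjusted p = 0.0778), and Aldh3a1 differed by 0.32 in treated bladder against tumor. Of 10 genes of cisplatin transport 8 had higher means in treated bladder than in tumor, with a median of 0.04. The copper importer Slc31a1, through which cisplatin can enter cells, differed by -0.17 there (unadjusted p = 0.419).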

How the data were processed

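RNA (12 ng per sample) was extracted by an FFPE-tissue kit and read on Affymetrix whole-transcript arrays, per the labels' protocols. Each deposited value is a log2 signal. The submitters' processing notes name RMA and Affymetrix Expression Console, without versions. RMA quantile-normalizes arrays, which removes differences in overall RNA amount. Of 65956 deposited entries, 284 hold values above 16, more than a scanner of that bit depth gives on the log2 scale, and no member is among them. Part of the genotype is not reported here. Entries with 1 gene symbol (30604) were used, 2146 with several and 33206 unlisted were not, and 827 symbols were updated by gene ID, which gave 30142 genes; for 355 genes the entry with the highest mean was kept. Signal over background was not used here, and the number of arrays limits the precision.

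limma (version 3.58.1, R 4.3.3; lmFit, eBayes) fitted group means to 19 arrays of the 4 replicated groups without covariates. The two-sided p-values were Benjamini-Hochberg adjusted over all genes, with adjusted p under 0.05 as the call. The fit was tested on simulated data. Alternatives were the groups compared alone, a trended and robust prior, array weights, quantile normalization again, centring on medians, the mean of a gene's entries, genes above the median, the replicate block, leaving out near-mean arrays and leaving out each array. The members and lists were chosen with earlier results of these data known. From each pathway list the gene with the smallest p in treated bladder against tumor and the one with the highest mean were named; others were named because their unadjusted p was under 0.05 or after their values were seen.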

Additional observations from a re-analysis of the deposited data

Results flagged for a closer look

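Values far from the rest of their group were looked for in 30 groups of values (10 members in the 3 groups of 4 to 10 samples), where chance alone would mark about 1 in 20. Of the 30 groups, 2 were flagged, which is close to that rate. Gstm2 stood out in metastasis 1 at 12.0, with the other metastases between 7.19 and 7.38, so that the gap was 0.959 of the group's range. Mt2 stood out in control bladder 4 at 5.43, with the other controls between 4.39 and 4.48 and a gap of 0.912 of the range. Mt1 read 7.52 in that control, inside the range of the others.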

How the results depend on the processing

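Of 766 differences of members recomputed under other settings, 707 kept their direction and their side of the threshold and 59 changed sign. No member was called in any setting. Leaving out the 8 near-mean arrays called 1 gene in tumor against control, 1 in treated against control bladder and 4 in metastasis against tumor, and left 3 pairs of members related instead of 6. In that setting Gclc in tumor against control was -0.20, Gstp1 in treated bladder against tumor 0.064, and against control bladder Gstm1 was -1.52, Gsta4 -0.71, Mt1 0.28 and Gclc -0.068. Array weights called 2 genes in metastasis against tumor and turned Gclc in tumor against control (-0.041), Gclc in treated bladder against tumor (-0.001), Gstm1 (-0.24), Gsta4 (-0.41) and Gclc (-0.042) in treated against control bladder, and Gstm1 in metastasis against tumor (-0.018). Genes above the median alone gave 2 calls there. Quantile normalization again turned Gstp1 in treated bladder against tumor (0.065) and control (0.056) and Hmox1 against control (-0.029).

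Same-numbered samples did not deviate together in every pair of any comparison: correlations were -0.42 to -0.01 for tumor and control, -0.32 to 0.44 for treated bladder and tumor (0.44 for number 1), -0.20 to 0.12 for treated and control bladder, and -0.51 to 0.04 for metastasis and tumor. The numbers were not taken as pairs. With the replicate number as a block, 0 genes were called in each comparison. The block turned Gclc in tumor against control (-0.086), Gstp1 and Mt1 in treated bladder against tumor (both 0.021), and Gstm1 (-0.47), Gsta4 (-0.15) and Mt1 (0.27) in treated against control bladder.

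Leaving out 1 array at a time, tumor against control ran from -0.075 to 0.12 for Gclc and -0.16 to 0.12 for Gstp1. Treated bladder against tumor ran from -0.045 to 0.25 for Gclc, -0.15 to 0.13 for Gstp1 and -0.20 to 0.29 for Nqo1. Treated against control bladder ran from -0.019 to 0.28 for Gclc, -0.19 to 0.66 for Gsta4, -0.29 to 0.70 for Gstm1, -0.17 to 0.11 for Gstp1, -0.10 to 0.11 for Hmox1, -0.42 to 0.32 for Mt1 and -0.039 to 0.44 for Mt2. Metastasis against tumor ran from -0.41 to 1.37 for Gstm1, and its count of called genes from 0 to 2, the 2 without bladder tumor 6. The cause of these turns was not tested. With 3 to 7 arrays a group, intervals such as that of Gstm1 in treated bladder against tumor (-0.999 to 4.49) do not exclude large differences either way.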
